A study of Mus musculus with 2 samples.

Results

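Conventional CD4 T cells were taken from 2 single-cell RNA-Seq libraries of mouse livers bearing cholangiocarcinoma (CCA), 1 library per group. A cell was chosen by its own transcripts, counted as unique molecular identifiers (UMIs). It had 500 to 5000 detected genes, at most 10% mitochondrial UMIs, UMIs of 2 or more of *Cd3d*, *Cd3e*, *Cd3g*, *Trac* and *Trbc2*, a *Cd4* UMI, and no UMI of *Foxp3*, *Cd8a*, *Cd8b1*, *Trdc*, *Klrb1c*, *Zbtb16*, *Cd79a* or *C1qa*. The selection held 871 of 31891 cells, of which 450 (of 15531) came from PBS and 421 (of 16360) from anti–PD-1.

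All animals had CCA induced by hydrodynamic tail vein injection (HDTVI) of an activated Notch receptor (NICD) and myristoylated AKT, which transforms hepatocytes of an otherwise immunocompetent liver. Every animal also carried shRNAs to *Yap1* and *Wwtr1*, which encode YAP and TAZ, switched on by doxycycline and driven in the whole body by the CAG-rtTA3 transgene, so T cells could carry the knockdown as well as the tumor. Doxycycline was given from day 25 and tissue was taken on day 33. The shYT_PBS group received PBS. The shYT_antiPD1 group received the anti–PD-1 antibody RMP1-14 on days 26, 29 and 32. The labels give neither the shRNA line, the sex nor the number of animals in a library. A figure legend of the study counts several replicates per group, which were not told apart within a library here. Without a second library in either group, no difference could be tested, and the intervals below, all at 95%, cover counting error only and not differences between animals.

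CD4 T cells recognize peptides on MHC class II and direct other immune cells through cytokines and through surface ligands such as CD40L. Naive and central memory cells recirculate through lymph nodes by means of CCR7 and S1PR1, whereas effector and resident cells lose these receptors and take up tissue receptors such as CXCR6. PD-1 and CTLA-4 are inhibitory receptors that T cells acquire on activation.

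Median depth per selected cell was 2729.5 UMIs (PBS) and 3336 UMIs (anti–PD-1), and the summed totals were 1561811 and 1555301 UMIs. Levels are given as CPM, a gene's UMIs in the summed cells scaled to a total of 1000000, with PBS first throughout. T cell receptor signaling genes that the selection did not use, such as the kinase genes *Lck* (659 and 653 CPM) and *Zap70* (218 and 214 CPM), were present in both libraries, and the 16 genes of that list, all measured, had a median log2 ratio of −0.02 between anti–PD-1 and PBS. *Cd40lg*, the gene of CD40L, stood at 42.3 CPM (32.7 to 53.8) and 52.7 CPM (41.9 to 65.4), against 4.16 and 3.51 CPM in CD8 T cells chosen in the same way with *Cd8a* or *Cd8b1* in place of *Cd4*. The markers thus matched the label, but the *Cd4* edge was not sharp. Of the selected cells, 234 and 208 had a single *Cd4* UMI. Another 751 and 592 cells had the CD3 genes, no *Cd4* UMI and none of the excluded genes. These held *Cd40lg* at 34.7 and 38.3 CPM, so conventional CD4 T cells may be among them. Cells at the CD3 edge of the selection held fewer T cell receptor transcripts. The 41 PBS cells with only 2 of the 5 CD3 complex genes had 4252 CPM of the T cell receptor list, against 7429 CPM in the 409 cells with 3 or more, while the 15 cells left outside with 1 such gene had 2655 CPM. In the anti–PD-1 library the corresponding values were 4923, 7459 and 3276 CPM.

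The exclusions set how many cells were counted. Of 4025 PBS and 4794 anti–PD-1 cells with the CD3 genes, conventional CD4 T cells made up 11.2% and 8.78%, counting only cells with a *Cd4* UMI. The difference in this share was −2.40 percentage points (−3.68 to −1.13). A *C1qa* or *Cd79a* UMI, markers of macrophages and B cells, was the sole reason for leaving out 250 and 401 cells that otherwise qualified. With these cells kept, 700 and 822 cells qualified and the difference shrank to −0.245 points (−1.85 to 1.35). Selection on cells thinned to 1000 UMIs gave −0.764 points (−2.23 to 0.69). Under both of these selections the interval held 0. Under the other 8 selections tried it lay below 0, from −0.923 points (−1.86 to −0.0047) with 2 or more *Cd4* UMIs to −3.35 points (−6.88 to −0.31) among Y-linked cells. These 8 were not independent checks. With at least 200 detected genes the same 450 and 421 cells were selected. Leaving out cells with UMIs of other lineages reduced the selected cells to 180 and 66 but not the T cells they were divided by.

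Transcripts of other cell types were found in the selected cells of both libraries, and their amounts differed between the libraries. The 6 neutrophil markers summed to 787 CPM in PBS and 2371 CPM in anti–PD-1, with *S100a8* at 393 and 1343 CPM. The 6 tumor and biliary markers summed to 2073 and 869 CPM, 5 of them at least 2-fold lower in anti–PD-1, with *Spp1* at 1710 and 716 CPM. The stromal list stood at 383 and 109 CPM and the hepatocyte list at 79.4 and 37.3 CPM. Macrophage, dendritic cell and B cell lists stood at 2036 and 2281 CPM, 1594 and 2077 CPM, and 649 and 825 CPM. In the macrophage list 6 of 7 genes were above 0, with a median log2 ratio of 0.64. The complement genes *C1qb* and *C1qc* were at 123 and 255 CPM and at 99.2 and 203 CPM, and *Lyz2* at 366 and 574 CPM, while *Apoe*, which held most of the sum, was at 1366 and 1142 CPM. NK cell markers summed to 9.60 and 34.7 CPM, red cell markers to 3.84 and 36.6 CPM and pancreatic acinar markers to 3.84 and 50.2 CPM. Only 3 of the 6 γδ T cell markers had an entry among the counted genes. They summed to 8.96 and 9.001 CPM, and none had a mean of 10 CPM, so this sum is incomplete. *Trgc2*, a T cell receptor gamma constant gene outside that list, was at 26.9 and 42.4 CPM. Neutrophils themselves, gated by *S100a8*, *S100a9* and *Csf3r*, were 915 PBS and 1837 anti–PD-1 cells. T cell genes were not excluded from this gate, so it can share cells with the conventional CD4 T cells. The part of free RNA and of doublets in the differences below was not tested.

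The libraries also differed in the sex of the cells. *Xist*, expressed from the inactive X chromosome, had 498 UMIs in PBS and 0 in anti–PD-1. In the PBS library 196 cells had *Xist* and no Y-linked UMI, 49 cells had Y-linked UMIs only and 14 had both. In the anti–PD-1 library 217 cells had Y-linked UMIs and none had *Xist*. The PBS library thus held cells of both sexes and the anti–PD-1 library, as far as these genes showed, male cells, so sex and treatment cannot be told apart in the whole gate. Ratios between the 49 and 217 Y-linked cells are given for some of the genes after the comparison of all cells.

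Of 8664 genes with a mean of at least 10 CPM, 244 (2.82%) were at least 2-fold higher in anti–PD-1 and 247 (2.85%) at least 2-fold lower, after adding 5 CPM to both levels. The median log2 ratio of all these genes was −0.13, and 3204 of them (37.0%) were above 0 and 5460 below, against which the counts of list members above or below 0 are to be read. Scaling by the median ratio of genes, which moves this median to about 0, made it 336 higher and 184 lower. The ranking left out the genes of the selection, *Xist*, Y-linked genes and gene models without a name (Gm and Rik symbols), which kept 8427 genes. Only genes whose interval left out 0 were ranked. The 12 highest by log2 ratio were *G0s2*, *Vps37b*, *Fosl2*, *Il1b*, *Hdc*, *Nfil3*, *Areg*, *Cxcl9*, *Dusp5*, *Dusp10*, *Plaur* and *Ccrl2*. Several of these are genes of other cells, and *G0s2* went from 3.84 to 146 CPM in conventional CD4 T cells and stood at 3234 CPM in the neutrophils of the anti–PD-1 library. The 12 lowest were *Ccl1*, *Akr1cl*, *Cdkn1c*, *Sparc*, *Acta2*, *Tagln*, *Fstl1*, *Cck*, *Col1a2*, *Pir*, *Eln* and *Igfbp7*, of which many encode matrix and contractile proteins of stroma. *Sparc* went from 332 to 33.4 CPM, and 5 cells held 372 of its 518 UMIs in PBS. Others of the 12 rested on few PBS cells too, with 41 of 41 *Cck* and 64 of 71 *Tagln* UMIs in 5 cells. Without the 5 leading cells of each library, the ratios of *Cck*, *Tagln*, *Col1a2* and *Pir* were 0, −0.93, −0.83 and −0.94. The rest of the 12 stayed at least 2-fold lower.

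Of the 8427 genes, 4639 were higher in conventional CD4 T cells than in cells outside the CD3 selection, in both libraries. Among these, 67 were at least 2-fold higher in anti–PD-1 and 44 at least 2-fold lower, against 230 and 232 of all 8427. The 3788 genes that were not higher in both libraries held 163 and 188, so most genes past 2-fold lay there. Cells outside the CD3 selection had UMIs of fewer than 2 of the 5 CD3 complex genes. They still held 709 and 1002 CPM of the T cell receptor list. *Vps37b*, *Areg*, *Dusp5*, *Dusp10*, *Nr4a3*, *Frat2*, *Ctla4*, *Tnfaip3*, *Ccl5*, *Dgat1*, *Gramd3* and *P2ry10* led the higher side. *Ccl1*, *Ccr6*, *Tff1*, *Susd2*, *Ttn*, *Myo3b*, *Penk*, *Lta*, *Cd70*, *Tiam1*, *Crebl2* and *Dkkl1* led the lower side. This restriction was added after the values had been seen.

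**Figure D1:**
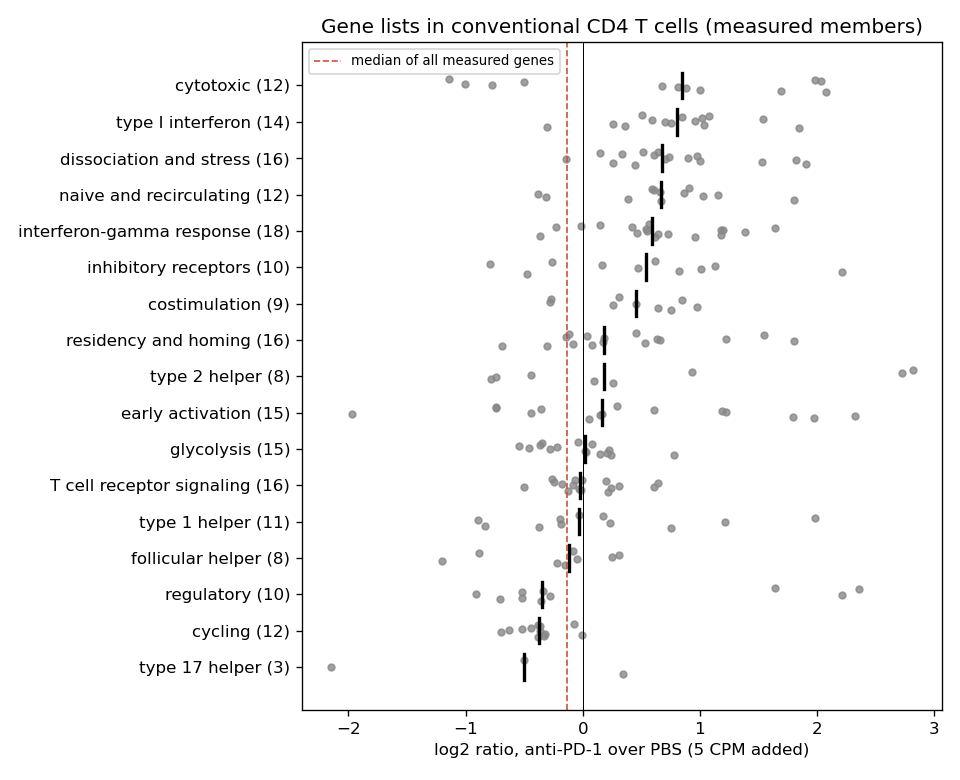
Log2 ratio of anti–PD-1 over PBS (x axis, 5 CPM added to both levels) for each measured member of 17 gene lists (y axis, number of measured members in parentheses) in conventional CD4 T cells. Points are genes, black bars list medians, and the dashed line the median of all measured genes at −0.13. The cytotoxic, type I interferon, stress and naive lists had the highest medians, and the cycling, regulatory and type 17 lists the lowest.

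Genes of naive and recirculating cells were higher in the anti–PD-1 library. Of the 12 genes of the list, 10 were above 0 and 3 at least 2-fold higher, with a median log2 ratio of 0.66. *Ccr7*, the lymph node homing receptor, was at 116 CPM (99.6 to 134) in PBS and 418 CPM (386 to 451) in anti–PD-1, a log2 ratio of 1.81 (1.58 to 2.04). *S1pr1*, which lets lymphocytes leave tissue, was at 67.2 CPM (55.0 to 81.4) and 156 CPM (137 to 177). *Klf2*, the transcription factor that maintains *S1pr1*, was at 315 and 648 CPM. The members did not move as one. *Tcf7*, the transcription factor of naive and memory-like T cells, was lower at 378 CPM (348 to 410) and 303 CPM (276 to 331). *Il7r*, the receptor chain for the survival cytokine IL-7, was lower at 487 and 372 CPM. Its log2 ratio of −0.38 ranged from −0.88 in sums of thinned cells to −0.015 with 2 or more *Cd4* UMIs. After thinning to 1000 UMIs, the share of cells with *Ccr7* was 9.01% (6.51 to 12.1) in PBS and 23.9% (19.9 to 28.3) in anti–PD-1, and that with *Il7r* 36.7% (32.2 to 41.4) and 23.2% (19.2 to 27.6). B cells, which also express *Ccr7*, held it in 17.4% and 49.3% of cells, and neutrophils in 0.604% and 2.99%. The median of the naive list stood at 0.030 once cells with UMIs of other lineages were left out, on 180 and 66 cells, although *Ccr7* itself stood at 2.38 there.

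Inhibitory receptors were led by *Ctla4*. It was at 162 CPM (143 to 183) in PBS and 769 CPM (726 to 814) in anti–PD-1, a log2 ratio of 2.21 (2.02 to 2.41), which ranged from 1.69 to 2.39 over all 17 alternative settings. It was detected in 11.9% (9.07 to 15.3) and 38.3% (33.6 to 43.1) of thinned cells, against 1.74% and 2.03% of B cells and 0.604% and 2.76% of neutrophils. *Lag3* was at 65.3 and 119 CPM, with 65 of 185 UMIs in 5 cells of anti–PD-1, and was found in 5.41% and 5.50% of thinned cells. Its log2 ratio of 0.82 became 0.26 in sums of thinned cells. *Tigit* was at 65.9 and 93.2 CPM. *Pdcd1*, the gene of PD-1 itself, was lower, at 241 CPM (217 to 266) and 172 CPM (152 to 194), and *Tox*, a transcription factor of chronically stimulated T cells, at 224 and 186 CPM. Of 10 list members, 7 were above 0 and 3 at least 2-fold higher, with a median of 0.54. The costimulatory receptors *Icos*, at 203 and 345 CPM, *Cd28*, at 239 and 376 CPM, and *Cd27*, at 106 and 214 CPM, were higher too. *Tnfrsf18*, the gene of GITR, was lower at 280 and 229.5 CPM and *Slamf6* at 244 and 202 CPM. The list of 9 had 7 members above 0 and a median of 0.46 with none past 2-fold. *Tnfsf8*, the gene of CD30 ligand, was at 248 and 132 CPM.

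**Figure D2:**
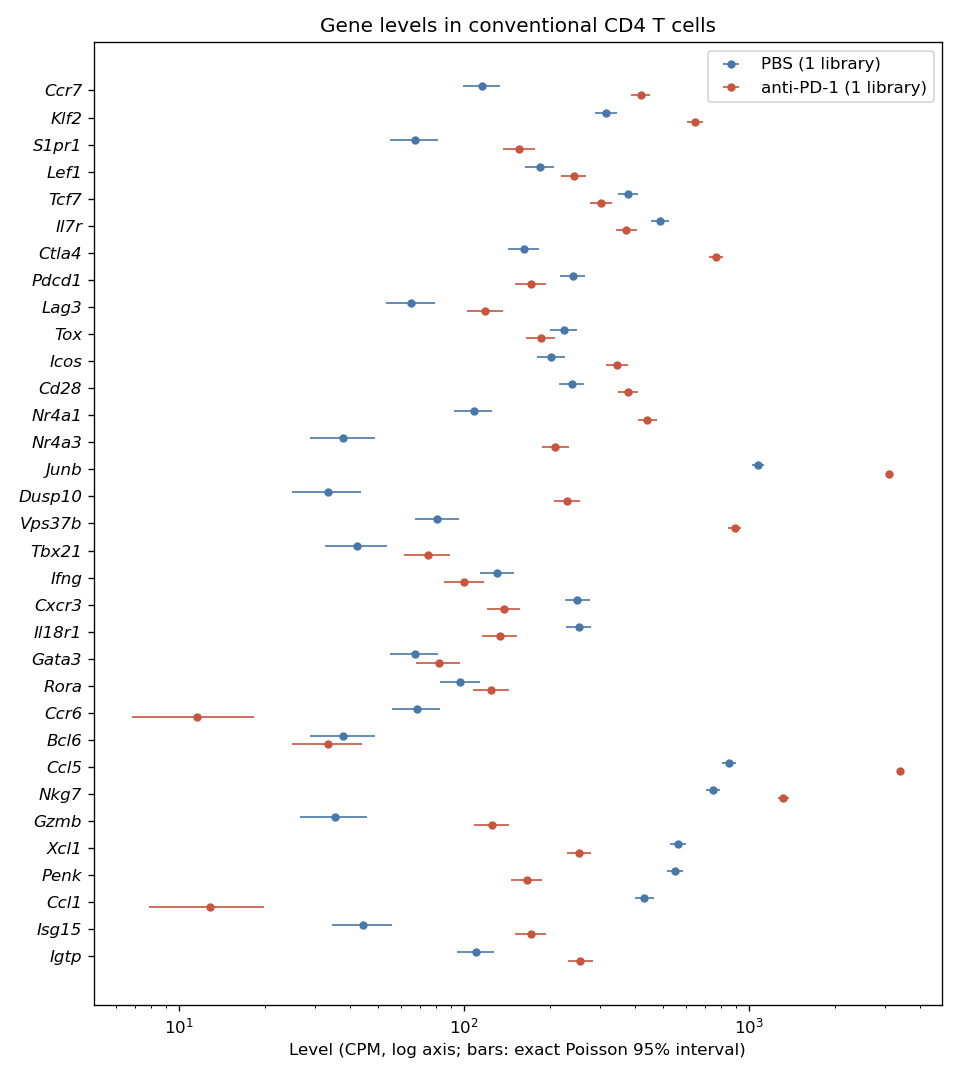
Levels of 33 genes in conventional CD4 T cells (x axis, CPM on a log axis) of the PBS and anti–PD-1 libraries, with exact Poisson intervals. Each point is 1 library. *Ctla4*, *Ccl5*, *Vps37b* and *Junb* lie well to the right in anti–PD-1, and *Ccr6*, *Penk* and *Ccl1* in PBS.

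Chemokine and cytotoxic genes went in both directions. *Ccl5*, which attracts T cells and monocytes, was at 853 CPM (808 to 901) in PBS and 3398 CPM (3307 to 3491) in anti–PD-1. It was found in 27.7% and 43.1% of thinned cells, against 8.44% and 13.5% of B cells and 9.90% and 18.9% of neutrophils. *Nkg7*, a cytotoxic granule protein, was at 751 and 1323 CPM, *Gzmb*, encoding granzyme B, at 35.2 and 125 CPM, and *Gzmk* at 48.0 and 101 CPM. The 12 measured genes of the cytotoxic list had a median of 0.85, 4 at least 2-fold higher and 2 at least 2-fold lower. *Ccl4*, an inflammatory chemokine gene, went from 76.2 to 329 CPM. In PBS 5 cells held 89 of its 119 UMIs and in anti–PD-1 267 of 511, and without them the log2 ratio was 2.75 (2.29 to 3.21).

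*Xcl1*, which attracts cross-presenting dendritic cells, and *Ccl1*, the ligand of CCR8, were lower in anti–PD-1 in the summed counts, which rested on few cells. *Xcl1* was at 565 and 254 CPM, and *Ccl1* at 430 and 12.9 CPM. In PBS, 5 cells held 663 of 883 *Xcl1* UMIs and 624 of 671 *Ccl1* UMIs, and 1 cell alone held 480 and 425 of them. With 19278 UMIs this was the deepest of the selected cells, and it also held 42 UMIs of the neutrophil gene *S100a8*. Whether it was a doublet was not tested. *Ccl1* stood at 226 CPM in the PBS neutrophils, a selection that can hold the same cell. Without the 5 cells of each library that had the most UMIs of the gene, the log2 ratio of *Xcl1* was 0.16 (−0.10 to 0.42) and that of *Ccl1* −2.12 (−2.69 to −1.40). *Xcl1* was found in 9.46% and 10.8% of thinned cells. With the selection made on thinned cells both ratios had the opposite sign, 0.78 for *Xcl1* and 1.30 for *Ccl1*. *Penk*, which encodes the precursor of enkephalins, was lower too. In PBS 5 cells held 386 of its 861 UMIs, and in anti–PD-1 164 of 259. It was at 551 and 167 CPM, in 9.91% and 4.78% of thinned cells, and its ratio without the 5 leading cells was −2.24 (−2.55 to −1.94).

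**Figure D3:**
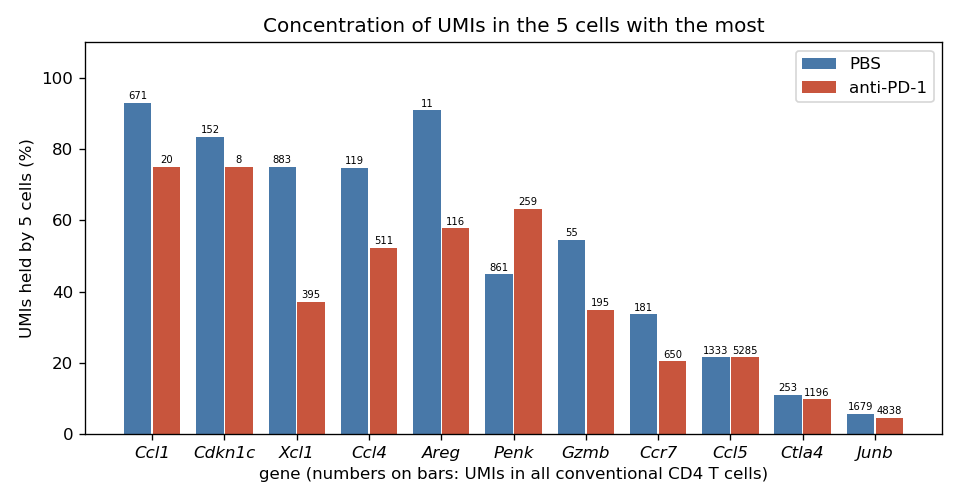
Percent of a gene's UMIs held by the 5 conventional CD4 T cells with the most (y axis) in the PBS and anti–PD-1 libraries, with the number of UMIs over each bar. The 5 cells held 93.0% of *Ccl1* and 75.1% of *Xcl1* UMIs in PBS, and under 12% of *Ctla4* and *Junb* UMIs in either library.

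Helper programs showed no common direction. Among type 1 genes *Tbx21*, the lineage factor T-bet, was at 42.3 and 74.6 CPM, whereas the chemokine receptor *Cxcr3* was at 250 and 138 CPM, the IL-18 receptor gene *Il18r1* at 254 and 134 CPM and the cytokine *Ifng* at 131 and 100 CPM. The 11 measured members had a median of −0.03. *Cxcr3* was found in 20.7% and 10.5% of thinned cells and *Il18r1* in 18.7% and 9.33%. *Ifng* was in 8.78% and 9.33% of cells, and its ratio of −0.37 became 0.37 on cells selected after thinning. The type 2 factor *Gata3* was at 67.2 and 81.7 CPM, with intervals that overlapped. *Areg*, a growth factor of tissue repair, was at 7.04 and 74.6 CPM, with 67 of 116 UMIs in 5 cells of the anti–PD-1 library. In T cells with *Foxp3* it was at 12.7 and 409 CPM. Its log2 ratio of 2.72 became 0.86 once cells with UMIs of other lineages were left out. The list of 8 measured type 2 genes had a median of 0.18. Of the type 17 genes only 3 were measured. The cytokine gene *Il17a* stood at 0.640 and 2.57 CPM, under the minimum level, while the chemokine receptor gene *Ccr6* was at 68.5 CPM (56.1 to 82.8) and 11.6 CPM (6.86 to 18.3). *Ccr6* was lower under all 17 alternatives. The median of the 3 genes was −0.50, and the list median was 0.34 with a minimum of 50 CPM. The follicular helper factor *Bcl6* was at 37.8 and 33.4 CPM and the cytokine *Il21* at 19.8 and 5.79 CPM, the latter on 31 and 9 UMIs, with a ratio of 0.62 when selection followed thinning. The 8 measured follicular helper genes had a median of −0.12. *Lta*, encoding lymphotoxin alpha, was at 107 and 34.1 CPM.

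Regulatory genes other than *Foxp3* were looked at because a cell without a *Foxp3* UMI may still be a regulatory T cell. *Ikzf2*, encoding Helios, was at 148 CPM (129 to 168) and 88.7 CPM (74.5 to 105), and *Il2ra*, the IL-2 receptor alpha chain, at 73.0 and 55.9 CPM. T cells with *Foxp3* had 542 and 665 CPM of *Ikzf2*. Of the 10 measured members, *Ctla4*, *Il10* and *Lrrc32* were above 0 and the other 7 below, with a median of −0.35. That median became 0.04 in sums of thinned cells. *Il10*, an anti-inflammatory cytokine, was at 9.60 and 70.1 CPM, on 15 and 109 UMIs. Of the cells with *Ikzf2* UMIs, 49 of 96 in PBS and 56 of 66 in anti–PD-1 also held *Ctla4*. Among all selected cells *Ctla4* was held by 118 of 450 and 241 of 421. The cells with both genes were deeper, with medians of 4627 and 3994 UMIs. A cell without an *Ikzf2* UMI may still express it at this depth, so these counts do not say how many cells were regulatory.

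Some early response genes were higher in anti–PD-1, and not in T cells alone, while others were lower. Of 15 measured genes of the early activation list, 5 were at least 2-fold higher and 1 at least 2-fold lower. The intervals of 6 lay above 0 and those of 3 below. The median was 0.17, against 1.62 in cells outside the CD3 selection. Of the higher genes named next, only *Nr4a1* is on this list. The median of the early activation list was 1.19 with a minimum of 50 CPM and −0.09 in sums of thinned cells. *Junb*, an AP-1 subunit, was at 1075 CPM (1024 to 1128) and 3111 CPM (3024 to 3200), *Nr4a1*, a nuclear receptor induced by T cell receptor signaling, at 108 and 441 CPM, and *Vps37b*, a subunit of the ESCRT-I sorting complex, at 80.7 and 894 CPM. The phosphatase genes *Dusp5* and *Dusp10* were at 48.7 and 330 CPM and at 33.3 and 230 CPM, and *Tnfaip3*, an inhibitor of NF-kB signaling, at 174 and 783 CPM. In B cells of the same libraries *Junb* was at 768 and 2245 CPM, *Nr4a1* at 91.7 and 757 CPM and *Vps37b* at 41.5 and 369 CPM. In neutrophils they were at 1986 and 3482 CPM, 263 and 1091 CPM, and 83.3 and 410 CPM. The stress list, which holds genes that tissue dissociation also induces, had a median of 0.67 with 15 of 16 members above 0 here. In cells outside the CD3 selection its median was 1.15. The part of tissue preparation was not tested. Genes of the same kind that went the other way were *Egr2*, at 37.1 and 5.79 CPM, and the cytokines *Il2*, at 20.5 and 10.3 CPM, and *Tnf*, at 41.0 and 22.5 CPM. *Cd69* was at 170 and 177 CPM.

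**Figure D4:**
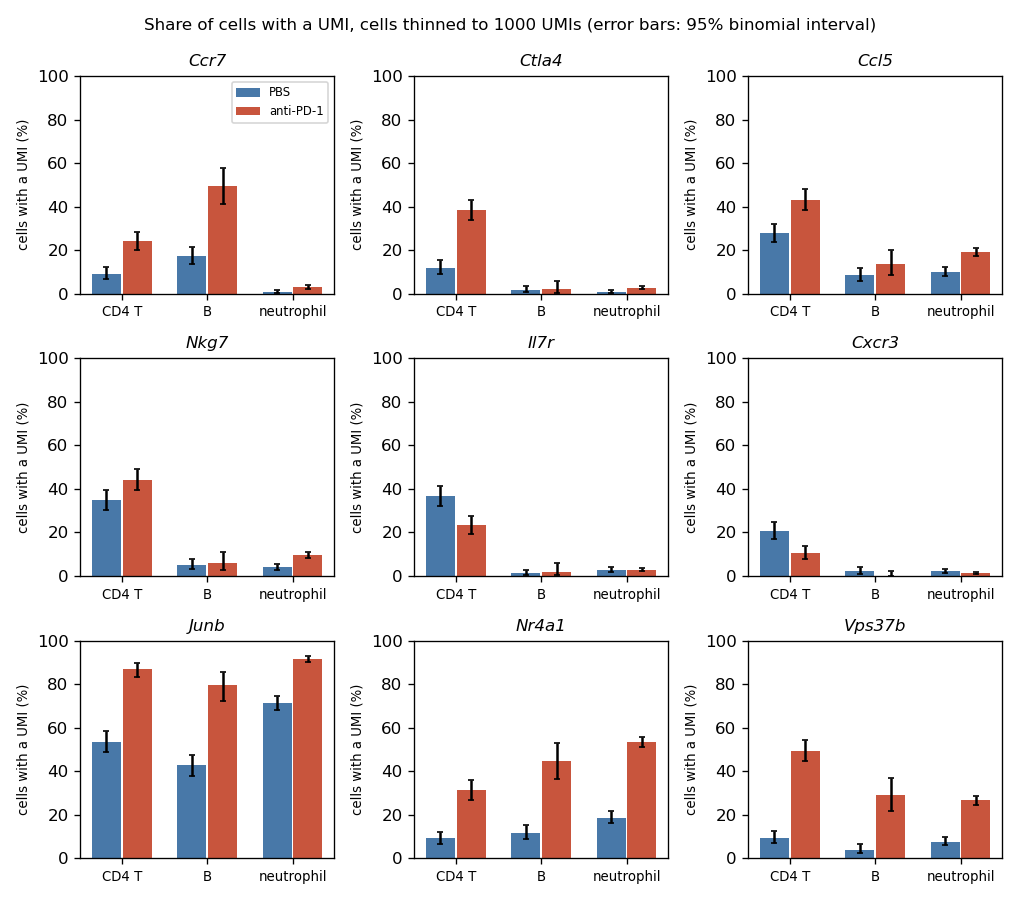
Percent of cells with a UMI of 9 genes (y axis) in conventional CD4 T cells, B cells and neutrophils of the PBS and anti–PD-1 libraries, each cell thinned to 1000 UMIs, with exact binomial intervals. *Ctla4* was more frequent in anti–PD-1 in conventional CD4 T cells and rare in B cells and neutrophils, whereas *Junb*, *Nr4a1* and *Vps37b* were more frequent in anti–PD-1 in all 3 cell types.

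Interferon-stimulated genes were higher as well. The 14 measured genes of the type I list had a median of 0.80, with 13 above 0 and 5 at least 2-fold higher. The 18 genes of the interferon-gamma list had a median of 0.59, with 15 above 0 and 5 at least 2-fold higher. The interferon-gamma median became 0.28 with selection after thinning. *Isg15*, a ubiquitin-like modifier, was at 44.2 CPM (34.4 to 55.9) and 172 CPM (152 to 194), and *Ifi27l2a* at 687 and 1395 CPM. *Igtp*, a GTPase of cell-autonomous immunity, was at 110 and 257 CPM, and *Gbp2*, a guanylate-binding protein, at 53.8 and 129 CPM. *Igtp* overlaps *Irgm2* on the same strand in the annotation, so their counts are uncertain. *Igtp* and *Gbp2* were each at least 2-fold higher in 11 of 17 alternatives, with log2 ratios of 1.18 that went down to 0.49 for *Igtp* with selection after thinning and to 0.45 for *Gbp2* in sums of thinned cells. In cells outside the CD3 selection the medians were 1.56 and 1.50, larger than in conventional CD4 T cells, and the neutrophils had 149 and 736 CPM of *Isg15*. The part of free RNA in these values was not tested.

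Promoters were read for letters known to bind factors of these pathways, in the 250 bases before the RefSeq start (GRCm38.p6, first entry per gene, both strands). In all 3 motifs were searched, all chosen with the expression values known. The cAMP response element TGACGTCA was searched first, with the AP-1 letters TGACTCA or TGAGTCA. It stood in 1.62% of all 27025 promoters, 2.92% of 6953 measured genes with an entry, 2.60% of those at least 2-fold higher, 1.14% of those lower and 0 of 9 early response genes. The AP-1 letters stood in 4.43%, 2.76%, 5.21% and 5.71% of these and in 1 of 9. The 9 early response genes were *Nr4a1*, *Nr4a2*, *Nr4a3*, *Junb*, *Fosl2*, *Dusp5*, *Dusp10*, *Tnfaip3* and *Egr2*. Of these *Egr2* was lower in anti–PD-1, and *Vps37b* had no promoter entry. The cAMP response element rested on 5 of 192 higher and 2 of 175 lower genes, and no difference between these groups was tested for any motif. The interferon-stimulated response element, GAAA on either side of any 2 bases, was searched after these results were known. It stood in 3.04% of all promoters, 3.08% of measured genes, 7.29% of the higher genes, 4.00% of the lower genes, 1 of 9 early response genes, 6 of 11 genes of the type I list and 8 of 13 of the interferon-gamma list. The cAMP response element stood in none of these 11 and 13 genes and the AP-1 letters in 2 of each. Both interferon lists hold genes known for such elements, so their shares describe the lists and not the treatment. Matches in the *Isg15* and *Igtp* promoters, shown because both genes were at least 2-fold higher in the comparison of all cells, are in capitals, and those of *Isg15* overlap.
Isg15, chr4:156200819-156201068, reverse strand: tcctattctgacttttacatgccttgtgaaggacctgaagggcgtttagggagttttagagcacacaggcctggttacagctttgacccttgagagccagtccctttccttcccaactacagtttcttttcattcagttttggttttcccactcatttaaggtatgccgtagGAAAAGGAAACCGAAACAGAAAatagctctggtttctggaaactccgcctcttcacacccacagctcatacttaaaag
Igtp, chr11:58199306-58199555, forward strand: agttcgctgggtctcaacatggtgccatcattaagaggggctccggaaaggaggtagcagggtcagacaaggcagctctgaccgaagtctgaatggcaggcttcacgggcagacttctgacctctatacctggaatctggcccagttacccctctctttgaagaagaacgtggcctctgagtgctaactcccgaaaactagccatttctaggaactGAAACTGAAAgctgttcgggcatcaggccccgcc

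Genes of cell division and metabolism stayed within 2-fold. All 12 cycling genes were below 0, with a median of −0.37 and none past 2-fold, and the median was 0.07 in sums of thinned cells. The proliferation marker *Mki67* was at 247 and 188 CPM and found in 6.98% and 6.70% of thinned cells. The 15 glycolysis genes had a median of 0.02. The resident and homing list had a median of 0.18. In it *Cxcr6* was at 222 CPM (199 to 247) and 251 CPM (227 to 278), and *Cxcr4*, the receptor for CXCL12, at 81.3 and 296 CPM.

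The cells fell into parts by homing receptor, a split chosen after the values had been seen. Cells with *Ccr7* seldom held *Cxcr6*, namely 3 of 78 in PBS and 15 of 158 in anti–PD-1. Of the cells without a *Ccr7* UMI, 33.1% and 43.7% held *Cxcr6*. After thinning, *Ccr7* without *Cxcr6* was seen in 8.78% of cells in PBS and in 23.0% in anti–PD-1, and *Cxcr6* without *Ccr7* in 17.8% and 16.7%. At this depth 73.2% and 59.3% had neither receptor. Without thinning the cells with *Ccr7* alone were 75 of 450 and 143 of 421, and those with *Cxcr6* alone 123 and 115.

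*Ctla4* and *Ccl5* were higher in anti–PD-1 on both sides of this split. In the *Ccr7* cells *Ctla4* was at 169.9 and 485 CPM and *Ccl5* at 326 and 823 CPM. In the *Cxcr6* cells *Ctla4* was at 119 and 1048 CPM and *Ccl5* at 2475 and 7314 CPM. The differences in *Tcf7* and *Il7r* were widest in the cells with *Cxcr6*. There *Tcf7* was at 223 and 49.3 CPM and *Il7r* at 358 and 71.6 CPM, with log2 ratios of −2.07 (−2.74 to −1.44) and −2.24 (−2.80 to −1.71). In the *Ccr7* cells *Tcf7* was at 451 and 487 CPM and *Il7r* at 707 and 567 CPM, and in the cells with neither receptor *Il7r* was at 471 and 418 CPM. *Pdcd1* was at 211 and 284 CPM in the *Cxcr6* cells and at 297 and 166 CPM in the cells with neither receptor.

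Between the 49 PBS and 217 anti–PD-1 cells with Y-linked UMIs, the log2 ratio was 2.01 (1.53 to 2.52) for *Ctla4*, 2.23 (1.97 to 2.49) for *Ccl5*, 1.17 (0.68 to 1.70) for *Ccr7* and 1.49 (1.28 to 1.70) for *Junb*, each with the sign it had in all cells. *Penk* stood at −2.82 (−3.10 to −2.53), and *Ccr6* at −3.14 (−4.01 to −2.21). *Xcl1* had the opposite sign there, 1.85 (1.09 to 2.70). The ratios of some other genes lay further from those in all cells. *Il18r1* stood at −1.78 (−2.18 to −1.38) against −0.90 in all cells, and *Cxcr6* at 1.03 (0.43 to 1.68) against 0.17. *S1pr1* stood at 2.50 (1.28 to 3.83) on only 4 UMIs in the PBS cells. In all cells it was at 1.16 (0.84 to 1.48), and the 2 intervals overlapped. *Ifng*, *Bcl6* and *Rora* had the opposite sign, at 0.27, 0.40 and −0.29, each with an interval that held 0, and *Gata3* at −0.98 (−1.72 to −0.20), with an interval below 0. The median of the cytotoxic list was 1.85, with only 49 cells from PBS, against 0.85 in all cells.

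Within PBS, cells with *Xist* and cells with Y-linked UMIs differed in several of the genes described above, and for others the interval held 0. Whether the ratios between the libraries depend on this mix was not tested. *Ccr7* was at 85.0 CPM in the *Xist* cells and 196 CPM in the Y-linked ones, a log2 ratio of −1.16 (−1.74 to −0.55), but 1 Y-linked cell held 24 of the 34 *Ccr7* UMIs there. Without the cell of each group with the most, *Ccr7* was at 67.8 and 61.1 CPM. The same cell raised the PBS level in the ratio of 1.17 between Y-linked cells, which set 196 CPM against 448 CPM in anti–PD-1. It thus made that ratio smaller, not larger. *Il7r* was at 358 against 651 CPM, *Tcf7* at 358 against 553 CPM, *Il18r1* at 256 against 489.7 CPM and *Penk* at 414 against 1342 CPM. *Xcl1* was at 971 CPM in the *Xist* cells, where the deepest cell held 480 of 765 UMIs, and at 74.9 CPM in the Y-linked ones. Without the cell of each group with the most, these *Xcl1* levels were 371 and 36.2 CPM. *Ctla4* and *Ccl5* had ratios of −0.21 (−0.73 to 0.35) and 0.05 (−0.22 to 0.33). How far sex or single animals set these values was not tested.

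CD8 T cells and T cells with *Foxp3* were set beside the conventional CD4 T cells, without a test of any difference between them. *Ctla4*, *Ccr7* and *Junb* were higher in anti–PD-1 in all 3. *Ctla4* was at 100 and 358 CPM in CD8 T cells and at 535 and 1979 CPM in Foxp3 T cells. *Ccl5* was at 8266 and 6910 CPM in CD8 T cells, a log2 ratio of −0.26 against 1.99 in the conventional CD4 T cells, and at 501 and 804 CPM in Foxp3 T cells, a ratio of 0.68. The ratios of *Nkg7* were 0.09 in CD8, −0.67 in Foxp3 and 0.81 in conventional CD4 T cells. *Pdcd1* was at 92.0 and 180 CPM in CD8 T cells, where it was higher, and at 189.8 and 158 CPM in Foxp3 T cells. *Ifng* was at 49.9 and 118 CPM in CD8 and at 25.3 and 28.2 CPM in Foxp3 T cells. Cycling genes had a median of 0.77 in CD8 T cells and −0.69 in Foxp3 T cells, against −0.37. *Gzma*, a granzyme gene of CD8 T cells, was at 12.8 and 70.1 CPM in the conventional CD4 T cells against 803 and 432 CPM in CD8 T cells. The part of unrecognized CD8 T cells in the *Ccl5* level was not tested.

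**Figure D5:**
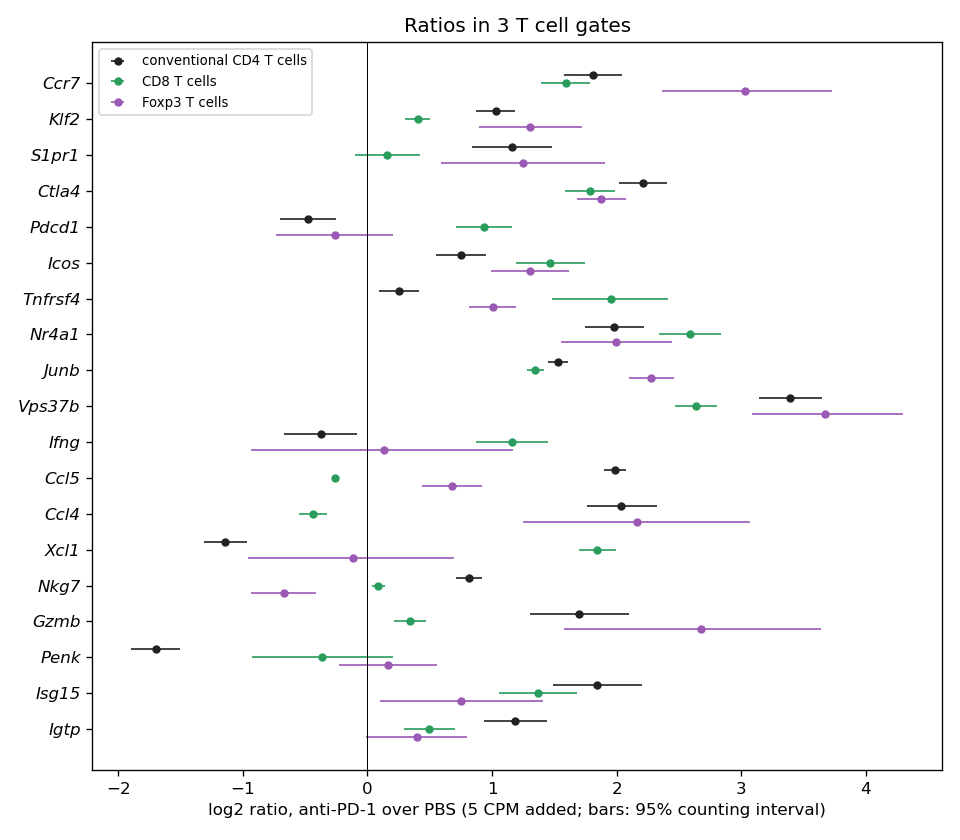
Log2 ratios of anti–PD-1 over PBS (x axis, 5 CPM added) for 19 genes in conventional CD4, CD8 and Foxp3 T cells, with counting intervals. *Ctla4* and *Ccr7* lie to the right in all 3, whereas *Ccl5* is at 1.99 in conventional CD4, −0.26 in CD8 and 0.68 in Foxp3 T cells.

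Within each library the genes that most set conventional CD4 T cells above CD8 T cells were *Penk*, *Tnfrsf4*, *Sostdc1*, *Gpm6b*, *Tbc1d4*, *Ly6c1*, *Izumo1r* and *Cd40lg*. *Tnfrsf4*, the costimulatory receptor OX40, was at 352 and 421 CPM in conventional CD4 T cells and at 10.6 and 55.5 CPM in CD8 T cells. *Izumo1r*, the folate receptor FR4 of helper and regulatory T cells, was at 146 and 228 CPM against 23.6 and 31.9 CPM. Over Foxp3 T cells the 8 leading genes were *Pde3b*, *Igfbp4*, *Trgc2*, *Cxcr6*, *Ly6c1*, *Cd40lg*, *Slamf7* and *Gzmk*. *Klrg1*, *Itgae*, *Ikzf4*, *Neb*, *Ighm*, *Ikzf2*, *Ncmap* and *Cd79b* were the most below Foxp3 T cells, among them the regulatory T cell factors Helios and Eos. These genes come from the same cells as the selection and describe it.

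The receptors themselves were seen in few cells. A single *Trbv* gene, the variable part of the T cell receptor beta chain, was counted in 87 PBS and 79 anti–PD-1 cells. *Trbv2* was in 11 of 87 (12.6%, 6.48 to 21.5) and 17 of 79 (21.5%, 13.1 to 32.2) of these, *Trbv13-2* in 11 and 12, and *Trbv16* in 11 and 7. With 17 and 20 different genes seen, no *Trbv* gene held most of either library.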

How the data were processed

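Cells of 2 mouse liver tumor libraries (shYT_PBS and shYT_antiPD1, 1 each) were analysed by single-cell RNA-Seq (Singleron GEXSCOPE). The authors deposited UMI counts for each gene and barcode, not normalized, made with the Singleron software against mm10 (its version is not given in the sources used here). The submitters' processing notes name Seurat 4.3. The libraries held 19397 and 19451 barcodes with 121713441 and 100807037 UMIs, and 219 barcode sequences occur in both, none of them in a conventional CD4 T cell of either. Of 32589 gene identifiers, 32445 matched GENCODE vM21 (GRCm38). Strand and multimapping rules are not given, so near-identical and overlapping genes are uncertain.

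UMIs were summed per library and gate and scaled to CPM, each with an exact Poisson interval. A log2 ratio compares anti–PD-1 with PBS once 5 CPM are added to both, which shrinks low genes. Genes with a mean of at least 10 CPM count as measured. Shares have exact Clopper-Pearson intervals. Cells were thinned to 1000 UMIs, which left out 6 PBS and 3 anti–PD-1 conventional CD4 T cells. B cells had UMIs of *Cd79a*, *Cd79b* and *Ms4a1*, and both they and neutrophils had no *C1qa* UMI. Neutrophils with CD3 or *Cd4* UMIs were kept, so they are not a fully separate background. No simulation-based doublet caller was run. Leaving out cells with UMIs of other lineages kept 180 PBS and 66 anti–PD-1 cells. It cannot replace such a caller, because 1 UMI of free RNA also removes a cell. Python 3.11.15, numpy 2.4.6, pandas 2.3.3 and scipy 1.17.1 were used, and the ratio calculation was tested on simulated data.

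The cells and the 17 gene lists were chosen with earlier results of these data known. Named genes were list members, the 12 highest and 12 lowest of the ranked genes, and 8 per comparison with other T cells. The plotted genes, the restriction to genes above cells outside the CD3 selection and the homing receptor split were chosen after the values had been seen. So were the counts over the 5 leading cells and over the leading cell of each sex, 3 added alternatives and the promoter search. Of the 3 promoter motifs, the interferon element was added after the results of the first 2 were known.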

Additional observations from a re-analysis of the deposited data

How the results depend on the processing

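No paired analysis was possible because each group holds 1 library. Of 60 named genes past 2-fold, 52 kept their sign in all 17 alternatives and 33 stayed past 2-fold. The alternatives marked here as added were chosen after seeing the data. The count of genes at least 2-fold higher, 244, became 124 with a pseudocount of 20 CPM, 117 with a minimum of 50 CPM, 623 without cells holding UMIs of other lineages (180 and 66 cells), 638 among Y-linked cells (49 and 217 cells) and 380 in sums of thinned cells. The count of lower genes, 247, became 469 with a pseudocount of 1 CPM, 56 with 20 CPM, 501 with no minimum level, 36 with 50 CPM, 394 with 2 or more *Cd4* UMIs, 1062 without other lineages, 1000 among Y-linked cells, 684 in thinned sums and 142 without exclusion by *C1qa* and *Cd79a* (added). The cause was not tested. The share difference of −2.40 points became −0.923 with 2 or more *Cd4* UMIs, −0.764 with selection after thinning and −0.245 without exclusion by *C1qa* and *Cd79a* (added).

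Among the named genes past 2-fold, signs reversed with selection after thinning for *Il21* (0.62), *Xcl1* (0.78) and *Ccl1* (1.30). They also reversed for *Fstl1* (1.06) without other lineages and for *Xcl1* (1.85), *Tagln* (0.53) and *Cd70* (0.73) among Y-linked cells. The same held for *Acta2* (0.34) and *Tagln* (1.12) without exclusion by *C1qa* and *Cd79a*, and for *Xcl1* (0.16) without its 5 leading cells (added). Some named genes within 2-fold changed sign too. *Tox* went from −0.26 to 0.19 without other lineages. In sums of thinned cells *Il2ra* went from −0.36 to 0.37, *Cd40lg* from 0.29 to −0.17 and *Cxcr6* from 0.17 to −0.07. The cause was not tested. Median-ratio scaling shifted the ratios (the size factors differ by −0.15 on the log2 scale), and 336 genes were then higher and 184 lower, against 244 and 247. Depth limits single genes: *Il21* rests on 31 and 9 UMIs, *Areg* on 11 and 116.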
